A study of Mus musculus with 19 samples.

Results

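Potassium channel genes were taken as all genes whose symbol begins with Kcn followed by letters and a number and whose probe set carried exactly 1 gene symbol. The rule gave 90 of the 30142 genes measured, each with 1 probe set. They were 36 subunits of voltage-gated channels, 12 auxiliary subunits of those channels, 15 inward rectifiers, 14 channels of the 2-pore family, 12 calcium- or sodium-activated channels with their subunits, and Kcnq1ot1, a non-coding RNA that carries the name of a channel but encodes none. Left out by the rule were 3 antisense RNAs of channel genes, whose probe sets carried several symbols.

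Expression was measured on Clariom D arrays in the infrarenal aorta of C57BL/6J mice, 1 mouse per array, operated on at 10 weeks of age and killed 7 days later. All mice had the aorta clamped, opened and infused for 5 min at 120 mmHg. Sham mice (3 females and 5 males) received saline, and PPE mice (4 females and 7 males) received saline with porcine pancreatic elastase at 2.5 U/mL, an enzyme that digests elastin and is used to induce abdominal aortic aneurysm. The number of arrays limits the precision of every value, which is a deposited log2 intensity. Array medians were 6.17 to 6.31 in females and 5.61 to 5.85 in males, so levels were not compared between the sexes, only PPE against sham within each.

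Potassium channels let potassium ions leave the cell and hold the membrane potential negative. In arterial smooth muscle this closes voltage-gated calcium channels and relaxes the vessel. Large-conductance calcium-activated (BK) channels, ATP-sensitive channels and several voltage-gated channels do this work in mural cells, that is smooth muscle cells and pericytes. T cells and macrophages use, among others, Kv1.3 and KCa3.1, whose potassium efflux sustains calcium entry during activation. Whether other cells of these aortae, smooth muscle cells included, also express these channels was not tested. The channel lists below carry cell type names, and such a name does not assign a signal to that cell type.

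Most of the 90 genes gave signals in the range of sensory receptor genes, which were taken here as a guide to dim signal. The dim limit was 6.38, the 95th percentile of the means over all 19 arrays of 1733 olfactory, vomeronasal and trace amine receptor genes. Above it lay 26 of the 90 means, from 7 voltage-gated, 6 auxiliary, 5 calcium- or sodium-activated, 4 of the 2-pore and 3 inward rectifier genes and Kcnq1ot1. The other 64 lay at or below the limit, and their differences between PPE and sham ranged from −0.34 to 0.24 log2 units in males and from −0.22 to 0.27 in females. A change in so dim a gene may not have been detectable on these arrays. Of the genes called in males, Kcnh2, Kcnip4, Kcnn3 and Kcnq5 had a PPE mean below the limit. Kcnab2 had a sham mean below it and Kcna6 both means. Their male folds may thus be set against signal near background. The limit pooled both sexes, male arrays had the lower medians, and no limit was set within males. How near background these male means lay was therefore not determined.

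In males 13 of the 90 genes changed after PPE, 4 higher and 9 lower, which is 14.4% against 19.7% of all genes. In females 6 changed, 1 higher and 5 lower, which is 6.67% against 4.22% of all genes. The limit on dim signal bears on these shares, since of the 26 genes above it 46.2% were called in males and 23.1% in females, against 31.8% and 7.54% of all genes above it. A gene can pass that limit through the group where it is high, so these shares are a description only. All 6 genes called in females were also called in males with the same sign, and these are 46.2% of the male calls. The median difference over the 90 genes was −0.01 in males and −0.03 in females, beside 0.01 and −0.02 over all genes. Among members without a call in either sex, 65 of 77 differed by less than 0.2 log2 units in both. In the plot of the male against the female response the 64 dim genes lie around 0, and Kcnmb1 and Kcna3 mark the 2 ends.

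**Figure D1:**
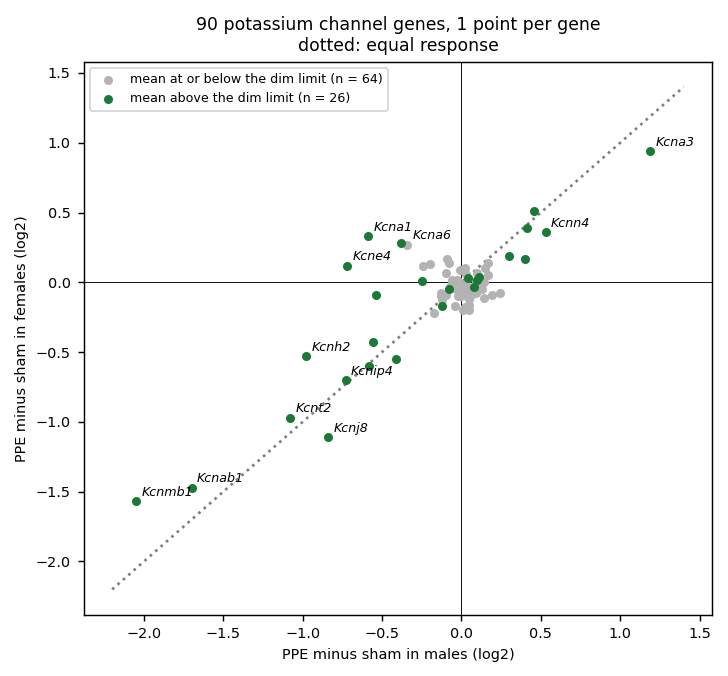
PPE minus sham in males (horizontal axis, log2) against females (vertical axis, log2) for the 90 genes, 1 point per gene, with grey for means at or below the dim limit and green for means above it. Kcnmb1 (−2.05 and −1.57) and Kcnab1 (−1.70 and −1.47) fell in both sexes, Kcna3 lay at 1.19 and 0.94, and the dotted line marks an equal response.

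Of 11 mural channel genes measured, 4 fell in males (Kcnmb1, Kcnab1, Kcnj8 and Kcnq5) and 3 in females (the same without Kcnq5), and none rose in either sex. The background of falling genes is 9.98% in males and 1.45% in females. The list, like the others below, was chosen with earlier results of these data known, so its counts are a description only. The list had a median difference of −0.56 in males and −0.09 in females. Fewer cells of a type and less RNA per cell cannot be told apart in whole aorta, and this holds for every difference given here.

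Kcnmb1, which encodes the beta 1 subunit that raises the calcium sensitivity of the BK channel in smooth muscle, showed the largest fall of the 90 in both sexes. The 5 male sham aortae read 11.49, 10.95, 10.22, 10.35 and 11.40, and the 7 male PPE aortae ranged from 8.28 to 9.46 with a median of 8.94. In females the sham values were 11.15, 11.70 and 11.41 and the PPE values 9.75, 9.51, 9.85 and 10.30. Every PPE array lay below every sham array of its sex. The difference was −2.05 ± 0.25 (SE, 4.13-fold, adjusted p = 1.2e-05, n = 5 and 7) in males and −1.57 ± 0.33 (2.96-fold, adjusted p = 0.0102, n = 3 and 4) in females. Without female sham 2 the female difference was −1.43 and no longer passed (adjusted p = 0.0682).

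Kcnma1 encodes the pore of the same BK channel, and its groups overlapped. Male sham values were 11.32, 10.76, 12.11, 10.79 and 11.07, and male PPE values ranged from 9.89 to 11.06 with a median of 10.66. The difference was −0.58 ± 0.22 in males (adjusted p = 0.0728) and −0.60 ± 0.29 in females (adjusted p = 0.337), neither past the threshold. Without male sham 2 (adjusted p = 0.0428) or male sham 4 (adjusted p = 0.0466) it passed in males, as it did after quantile normalization (0.04) and with dim genes removed (0.0488). The change of the log2 ratio of Kcnmb1 to Kcnma1 within each array is given as a description. No test result is given, since the pair was chosen after its values were seen. The change was −1.46 in males (2.75-fold) and −0.96 in females. Leaving out 1 array moved these changes between −1.85 and −1.30 in males and between −1.21 and −0.72 in females. The ratio sets 2 probe sets against each other, and whether both respond alike to RNA amount was not tested. Of the male sham arrays, sham 3 had a ratio of −1.89, inside the PPE range of −2.49 to −0.80, and the other 4 lay above all PPE arrays.

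Kcnab1, which encodes the beta subunit Kvβ1 that modulates inactivation of Kv1 channels, fell by 1.70 ± 0.27 on the log2 scale in males (3.25-fold, adjusted p = 0.000166). Its male sham values were 10.14, 9.49, 8.88, 9.10 and 9.20, all above the PPE range of 6.91 to 8.16. The female difference was −1.47 ± 0.35 (2.77-fold, adjusted p = 0.0237), from sham values of 10.10, 10.64 and 9.92 to PPE values of 8.64, 8.45, 8.33 and 9.58. Female PPE 4 was the highest of the 4 for Kcnab1 and for Kcnmb1, and its mean over 8 smooth muscle markers was 12.20 against 11.56 to 11.66 in the other female PPE arrays. The female call for Kcnab1 was lost without sham 1, sham 2 or PPE 1, 2 or 3 (adjusted p from 0.067 to 0.143).

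Kcnj8 encodes Kir6.1, the pore of the ATP-sensitive channel of smooth muscle cells and pericytes, which opens when energy supply falls. In females the sham values of 9.72, 9.84 and 10.15 were all above the PPE values of 8.62, 8.91, 8.85 and 8.80 (−1.11 ± 0.27, 2.16-fold, adjusted p = 0.0244). That call was lost without any 1 of the 3 sham arrays or without PPE 1 or 3 (adjusted p from 0.0576 to 0.108), and with each array centred on its median (0.0546). In males the sham values were 9.32, 9.25, 9.48, 8.30 and 8.89 and the PPE values ranged from 7.67 to 8.67 (−0.84 ± 0.21, 1.79-fold, adjusted p = 0.00636). Only male sham 4, at 8.30, lay inside the PPE range. Its partner Abcc9, the sulphonylurea receptor SUR2 of this channel, fell by 1.36 ± 0.18 on the log2 scale in males and by 1.05 ± 0.24 in females. This pair was also chosen after its values were seen, so no test result is given for it. The log2 ratio of Kcnj8 to Abcc9 differed between PPE and sham by 0.52 in males (0.47 to 0.61 without 1 array). In females it differed by −0.06 (−0.16 to 0.07). Here too the 2 probe sets may respond unequally to RNA amount, which was not tested.

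Kcnq5 encodes Kv7.5, a voltage-gated channel of smooth muscle that opens near the resting potential. It was called in males, with sham values of 7.08, 6.54, 6.53, 6.81 and 7.05 above a PPE range of 6.14 to 6.40 (−0.54 ± 0.10, 1.45-fold, adjusted p = 0.000702). In females sham and PPE overlapped (−0.09 ± 0.13, 95% interval −0.37 to 0.18). Its relative Kcnq1 lay below the dim limit, at −0.10 in males and −0.09 in females.

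The other mural channels did not pass in either sex. Kcna5, which encodes Kv1.5, a delayed rectifier of arterial muscle, differed by 0.04 in males (95% interval −0.30 to 0.37) and 0.03 in females (−0.40 to 0.46). Without male sham 4, male sham 5 and male PPE 1 together the male difference was 0.39 and passed (adjusted p = 0.0387). Kcne4, an auxiliary subunit of Kv7 channels, lay below every sham array in all 7 male PPE arrays without passing (−0.72 ± 0.26, adjusted p = 0.0606). Male adjusted p was 0.0276 without female sham 3, through the common variance estimate, and 0.0405 with dim genes removed. Without female sham 3 the female difference turned from 0.12 to −0.32. Kcna2, an axonal and vascular Kv1 channel, was at −0.38 in males and passed only without male sham 5 (adjusted p = 0.0353) or with array weights (adjusted p = 0.0403). Kcnj12, an inward rectifier, lay below the dim limit and differed by 0.09 and 0.01.

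The windows before a RefSeq start of Kcnmb1 and Kcnj8 are shown because these genes encode the BK and ATP-sensitive subunits that fell in both sexes. Each is the 250 bases before the start, 5′ to 3′ on the gene's strand, in GRCm38.p6, at chr11:33962763-33963012 (plus strand) for Kcnmb1 and chr6:142571615-142571864 (minus strand) for Kcnj8. Capitals would mark a CArG box, the site of serum response factor, a GC box (GGGCGG) or a TATA box (TATAAA), each searched on both strands, and neither window holds one. The Kcnmb1 start used is not the first of the gene, which begins at position 33962955, so the end of its window lies inside the gene.
Kcnmb1: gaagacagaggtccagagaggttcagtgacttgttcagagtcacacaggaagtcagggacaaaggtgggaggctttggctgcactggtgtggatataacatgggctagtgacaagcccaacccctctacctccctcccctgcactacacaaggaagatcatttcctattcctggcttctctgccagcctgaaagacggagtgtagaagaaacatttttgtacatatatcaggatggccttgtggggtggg
Kcnj8: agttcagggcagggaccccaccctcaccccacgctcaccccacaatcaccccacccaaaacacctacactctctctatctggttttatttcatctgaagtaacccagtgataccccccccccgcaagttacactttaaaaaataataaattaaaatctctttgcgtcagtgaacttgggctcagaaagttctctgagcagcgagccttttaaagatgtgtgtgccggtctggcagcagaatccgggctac

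Among all 32851 windows of this length 1.47% hold a CArG box, 32.7% a GC box and 12.4% a TATA box. RefSeq windows were given for 69 of the 90 genes, 94 windows in all, of which 0 hold a CArG box, 42 (44.7%) a GC box and 3 a TATA box. Of the 9 genes called lower in males, only Kcnab1 and Kcnh2 have a window with a GC box. A match is only a run of letters, and no match says only that these letters are not in the window.

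**Figure D2:**
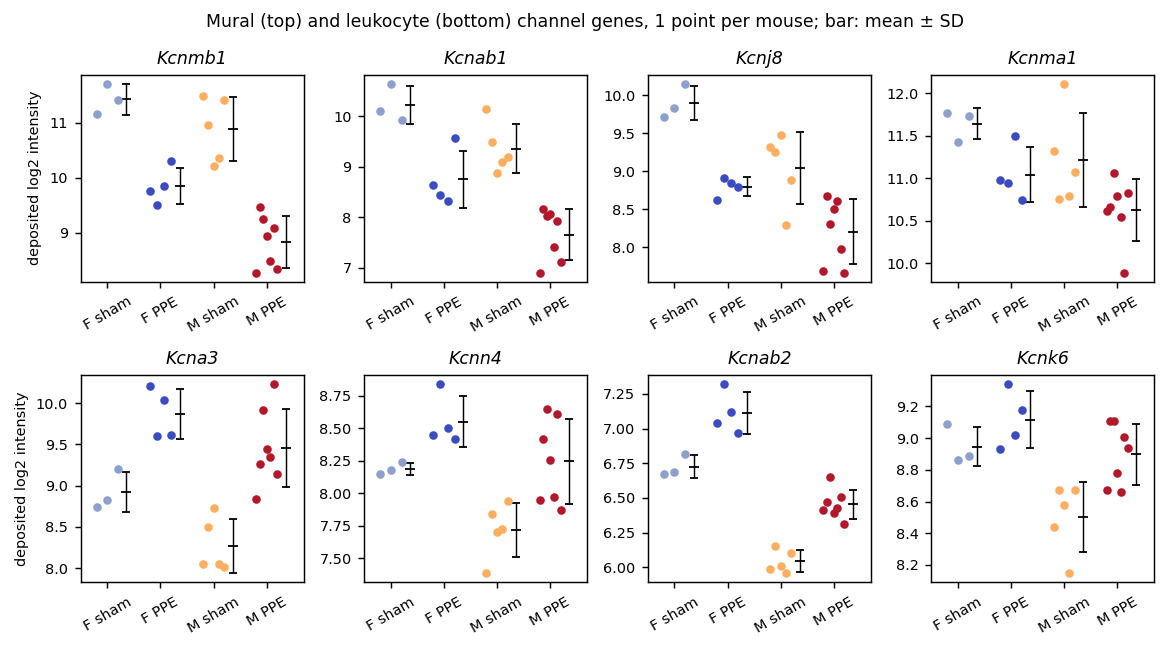
Deposited log2 intensity (vertical axes, not starting at 0) of 4 mural channel genes in the top row and 4 leukocyte channel genes in the bottom row, with 1 point per mouse in female (F) and male (M) sham and PPE groups and the mean ± SD beside them. Kcnmb1 and Kcnab1 show PPE arrays below all sham arrays of their sex, Kcnma1 and Kcnk6 overlap, and Kcna3 and Kcnab2 show PPE arrays above all sham arrays of their sex.

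Of 7 leukocyte channel genes 4 rose in males (Kcna3, Kcnn4, Kcnab2 and Kcnk6) and 1 in females (Kcnab2), and none fell in either sex. The background of rising genes is 9.67% in males and 2.77% in females. This list too was chosen with earlier results known. The list had a median difference of 0.40 in males and 0.17 in females.

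Kcna3 encodes Kv1.3, the main voltage-gated potassium channel of T cells, and showed the largest rise of the 90 in males. Male sham values were 8.05, 8.50, 8.73, 8.05 and 8.02, and male PPE values ranged from 8.84 to 10.23 with a median of 9.35. In females the sham values of 8.74, 8.83 and 9.20 lay below the PPE values of 10.21, 9.60, 10.04 and 9.62. The groups did not overlap in either sex, which was also true of 9.37% of all genes in males (4.69% higher, 4.68% lower) and 19.8% in females. The difference was 1.19 ± 0.21 in males (2.27-fold, adjusted p = 0.000411). In females it was 0.94 ± 0.27 (1.92-fold, adjusted p = 0.0591) and did not pass. It passed when male PPE 1 (adjusted p = 0.0369) or male PPE 6 (0.0278) was left out of the common variance estimate, and in 5 other settings such as the females fitted alone (0.025).

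Kcnn4 encodes KCa3.1, the intermediate-conductance calcium-activated channel of T cells, macrophages and endothelium. It rose by 0.53 ± 0.14 in males (1.44-fold, adjusted p = 0.0105), from sham values of 7.39, 7.84, 7.70, 7.73 and 7.94 to a PPE range of 7.87 to 8.65. Sham 5 and the lowest PPE array overlapped. In females the PPE values of 8.45, 8.84, 8.50 and 8.42 lay above sham values of 8.15, 8.18 and 8.24, a difference of 0.36 that did not pass (95% interval −0.02 to 0.74, adjusted p = 0.376).

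Kcnab2 encodes Kvβ2, a partner of Kv1 channels that is found in leukocytes and neurons. It rose by 0.41 ± 0.07 in males (1.33-fold, adjusted p = 0.000267) and by 0.39 ± 0.09 in females (1.31-fold, adjusted p = 0.0196). Male sham values of 5.99, 6.15, 6.01, 5.96 and 6.10 all lay below the PPE range of 6.31 to 6.65 and below the dim limit, and female sham values of 6.67, 6.69 and 6.82 below PPE values of 7.04, 7.32, 7.12 and 6.97. The female call was lost without sham 1, sham 2, PPE 2 or PPE 3 (adjusted p from 0.0548 to 0.0971) with each array centred on its median (0.0696) and with the females fitted alone (0.0589). The opposite changes of Kcnab1 and Kcnab2, which encode related beta subunits, were seen in both sexes.

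Kcnk6, a 2-pore channel of macrophages and other cells, rose by 0.40 ± 0.11 in males (1.32-fold, adjusted p = 0.0145). The male groups overlapped (sham 8.15 to 8.67, PPE 8.66 to 9.11), and Kcnk6 was at 0.17 in females. Without male sham 4, the array that read 8.15, the male difference was 0.31 and only just passed (adjusted p = 0.0483). Kcne3, an auxiliary subunit, lay below the dim limit and was at 0.24 in males, where it passed only without male sham 4 among single arrays (adjusted p = 0.0128), and in 4 other settings (0.0129 to 0.0436). Kcnk13 (0.11 in males, 0.04 in females) and Kcnk5 (0.03 and 0.06), both 2-pore channels, did not pass.

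The same windows are shown for Kcna3 and Kcnn4, the leukocyte channels best known in T cells, at chr3:107035912-107036161 and chr7:24370013-24370262 (both plus strand, GRCm38.p6). The Kcnn4 window lies wholly inside the gene, which begins at position 24369826, before an internal RefSeq start. Capitals mark GC boxes. Kcna3 has 2, at −107 to −102 and −92 to −87 from the start, and Kcnn4 has 1 on the opposite strand, at −14 to −9.
Kcna3: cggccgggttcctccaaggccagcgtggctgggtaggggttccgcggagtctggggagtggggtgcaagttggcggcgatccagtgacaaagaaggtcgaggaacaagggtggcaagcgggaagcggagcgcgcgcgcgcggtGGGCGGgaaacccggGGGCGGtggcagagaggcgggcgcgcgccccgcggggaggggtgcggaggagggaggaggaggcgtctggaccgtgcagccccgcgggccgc
Kcnn4: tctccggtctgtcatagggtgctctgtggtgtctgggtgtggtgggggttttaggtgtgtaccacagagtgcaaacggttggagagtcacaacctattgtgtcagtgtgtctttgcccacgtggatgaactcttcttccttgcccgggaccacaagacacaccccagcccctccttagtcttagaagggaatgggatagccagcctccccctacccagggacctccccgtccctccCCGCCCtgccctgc

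The Kcna3 window is 74.4% G and C and that of Kcnn4 58.8%, against 50.8% for Kcnmb1, 49.2% for Kcnj8 and a median of 52.4% over all windows. Of the 4 genes called higher in males 3 had a RefSeq window, and all 3 (Kcna3, Kcnn4 and Kcnab2) hold a GC box. So do 41 of the 69 members with a window. A difference in windows between rising and falling genes was not tested.

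Of 3 endothelial channel genes 1 rose in males (Kcnn4, described above with the leukocyte list) and 1 fell in both sexes. Over all genes 9.67% rose and 9.98% fell in males, and 1.45% fell in females. Kcnn3, which encodes SK3, a small-conductance calcium-activated channel of endothelium, was the one that fell. Male sham values were 6.49, 6.38, 6.12, 6.38 and 6.58 and PPE values 5.81 to 6.12, so the groups met at 6.12 (−0.41 ± 0.08, 1.33-fold, adjusted p = 0.000863). Female sham values of 7.06, 7.32 and 7.24 lay above PPE values of 6.54, 6.73, 6.63 and 6.74 (−0.55 ± 0.10, 1.46-fold, adjusted p = 0.00647), and the call was lost without female sham 2 (adjusted p = 0.0513). Kcnj2, which encodes the inward rectifier Kir2.1, was at 0.46 in males (adjusted p = 0.0764) and 0.51 in females (adjusted p = 0.295, or 0.0227 with array weights). It passed in males without male sham 3 (adjusted p = 0.00725) or male PPE 1 (adjusted p = 0.0393).

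Outside these lists 4 further genes were called in males, and all 4 fell. They are described because they were called, and 9.98% of all genes fell in males. Kcnt2, which encodes the sodium-activated channel Slick, had male sham values of 9.86, 9.27, 9.02, 8.74 and 9.30 above a PPE range of 7.67 to 8.43 (−1.08 ± 0.17, 2.12-fold, adjusted p = 0.000168). In females sham values of 9.37, 9.90 and 9.59 lay above PPE values of 8.61, 8.53, 8.41 and 9.05 (−0.97 ± 0.23, 1.96-fold, adjusted p = 0.0194). That female call was lost without sham 2 or 3 or PPE 1, 2 or 3 (adjusted p from 0.0539 to 0.126). Kcnh2, which encodes the ERG channel known from cardiac repolarisation, fell by 0.98 ± 0.12 on the log2 scale in males (1.97-fold, adjusted p = 1.23e-05), from 6.34 to 7.22 in sham to 5.64 to 6.12 in PPE, where all arrays lay below the dim limit. Its female values of 7.08, 7.07 and 7.07 in sham and 6.52, 6.49, 6.52 and 6.66 in PPE did not overlap either (−0.53 ± 0.16, adjusted p = 0.0694), and this passed without male sham 3 (adjusted p = 0.0164) or male sham 5 (0.0442) and in 5 other settings (0.00686 to 0.0472). Kcnip4, a calcium-binding partner of Kv4 channels, had male sham values of 7.58, 7.04, 6.65, 6.38 and 6.79 and a male PPE range of 6.01 to 6.38, and was at −0.73 ± 0.18 in males (1.66-fold, adjusted p = 0.00642) and at −0.70 ± 0.23 in females (adjusted p = 0.114). The female difference passed without female PPE 2 (adjusted p = 0.0395) or male sham 1 (0.0492) and with array weights (0.0149).

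Kcna6, which encodes the axonal and neuronal channel Kv1.6, was the fourth of these genes and the only called one with opposite signs in the sexes. Male sham values were 6.14, 6.41, 6.31, 6.53 and 6.06 and male PPE values 5.80 to 6.16 (−0.34 ± 0.08, adjusted p = 0.00632). Female sham values of 5.75, 5.72 and 5.69 lay below PPE values of 5.97, 5.99, 6.02 and 6.00 (0.27 ± 0.11, adjusted p = 0.205). The female difference passed with array weights (adjusted p = 0.0274) and with the females fitted alone (0.0306). All these differences are within 1.27-fold and the gene lies below the dim limit. The difference between the responses was −0.61 ± 0.14 (male minus female, adjusted p = 0.0514) and did not pass. It passed in 4 of 27 settings, with array weights (adjusted p = 0.0106) or without male sham 3 (0.0441), male PPE 2 (0.0444) or male PPE 7 (0.0434).

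**Figure D3:**
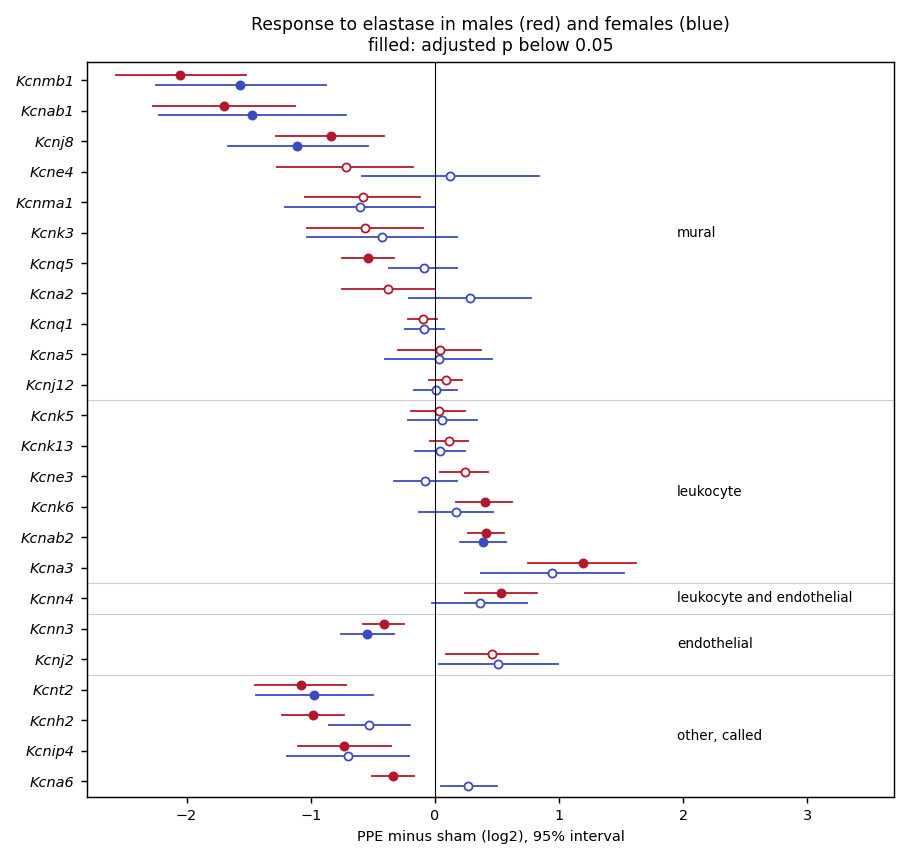
PPE minus sham (horizontal axis, log2) with its 95% interval for 24 potassium channel genes, in males (red) and females (blue), grouped by list, filled where the adjusted p was below 0.05. The mural genes Kcnmb1, Kcnab1 and Kcnj8 lie left of 0 in both sexes, Kcna3 lies at 1.19 in males and 0.94 in females, and Kcna6 lies at −0.34 and 0.27.

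No potassium channel gene passed the test of a difference between the male and the female response (limma, 0 of 90, against 0.541% of all genes, 0.0398% with a positive and 0.501% with a negative male minus female value), and 6 of the 90 had an unadjusted p below 0.05. The interval of that difference was −1.34 to 0.39 for Kcnmb1, −1.17 to 0.71 for Kcnab1, −0.45 to 0.98 for Kcnj8 and −0.48 to 0.96 for Kcna3.

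Of 12 neuronal channel genes measured, 1 fell in males (Kcnip4), which is 8.33% against 9.98% of all genes, and none was called in females. Kcna1, which encodes the axonal channel Kv1.1, was at −0.59 in males (adjusted p = 0.096) and 0.33 in females (adjusted p = 0.751). The mean of 4 nerve markers was 10.13 in female PPE 2 and 8.47 in female PPE 4 against 7.03 to 7.54 in the other female arrays. In those 2 arrays Kcna2 read 7.08 and 7.25 against 6.51 to 6.66 in the other females. In males the values went together in some arrays and not in others. Male sham 1 had the highest male nerve marker mean, 8.52, with Kcna2 at 7.30. Male sham 5 had a mean of 6.82 with Kcna2 at 6.46, and male PPE 2 a mean of 7.75 with Kcna2 at 6.97. Other male arrays went the other way. Male PPE 5 had a nerve marker mean of 8.45 with Kcna2 at 6.67, and male sham 2 and 4 had means of 7.34 and 7.21 with the highest Kcna2 values, 7.60 and 7.40. The part of nerve tissue in the Kcna2 values was not tested.

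Kcnk3 encodes TASK-1, an acid-sensitive 2-pore channel of smooth muscle that is also abundant in brown fat. Male sham 4 read 8.86, and the rest of the male sham group read 7.15, 7.49, 7.03 and 7.25, and male PPE arrays ranged from 6.87 to 7.19. The mean of 5 adipocyte markers in male sham 4 was 13.79, where the other 4 lay between 8.35 and 9.31. Ucp1, the brown fat uncoupling gene, read 15.83 there, 4.95 to 5.79 in those 4, and 5.83 to 11.34 in male PPE arrays. The male difference of Kcnk3 was −0.56 ± 0.22 (adjusted p = 0.0865) and −0.24 without that array (adjusted p = 0.0987), and it passed without male sham 3 (adjusted p = 0.0367). In females all 4 PPE values (7.61, 7.88, 7.49 and 7.85) lay below the sham values (8.06, 8.15 and 8.19), and the difference of −0.43 passed only when male sham 4 was left out of the common variance estimate (adjusted p = 0.0402), alone or with male sham 5 and male PPE 1 (0.0411). The adipocyte mean was 11.62 to 12.38 in female sham and 10.07 to 12.33 in female PPE arrays. The part of adipose tissue in the Kcnk3 values was not tested.

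**Figure D4:**
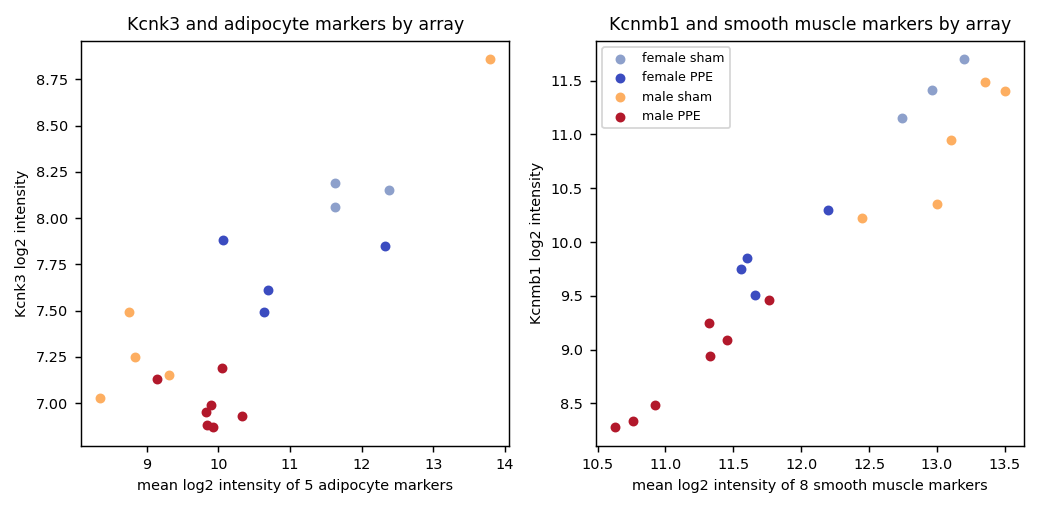
Kcnk3 against the mean of 5 adipocyte markers (left) and Kcnmb1 against the mean of 8 smooth muscle markers (right), log2 intensity on all axes, 1 point per array and coloured by group. Male sham 4 stands alone at the upper right of the left panel (13.79 and 8.86), and in the right panel PPE arrays (10.63 to 12.20) lie below sham arrays (12.45 to 13.50) on the marker axis.

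Markers of cell types were also compared between PPE and sham. Over all genes 9.67% rose and 9.98% fell in males, and 2.77% rose and 1.45% fell in females. Of 5 adipocyte markers and 4 measured nerve markers 0 were called in either sex. All 8 smooth muscle markers fell in males (median −1.91) and 6 of 8 in females (median −1.26), and their mean fell from between 12.45 and 13.50 in male sham to between 10.63 and 11.76 in male PPE arrays. Pericyte markers fell in 4 of 6 in males and 2 of 6 in females. All 8 T and NK cell markers rose in both sexes (medians 1.82 and 1.47). Of 8 monocyte and macrophage markers 7 were called higher in males (median 1.44) and 1 in females (median 0.65). In females all 8 of their differences lay above 0. Neutrophil markers rose in 6 of 7 in males and 4 of 7 in females, and B cell markers in 0 of 4 and 2 of 4. Skeletal muscle markers averaged 10.99 in female sham 1, 9.56 in female PPE 2 and 7.76 in male PPE 6, and 5.36 to 6.14 in the other arrays. Endothelial markers fell in 4 of 6 in males (median −0.49) and in 0 of 6 in females. In each of these marker lists 0 markers passed the limma test of a difference between the male and female response. Over all genes 0.541% passed it. The part of cell composition in the channel results was not tested.

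Genes that work with these channels were described from 2 further lists, also chosen with earlier results of these data known. Among 10 partner subunits without a Kcn number symbol, Abcc9 and the Kv2 partner Amigo1 fell in males (2 of 10, against 9.98% of all genes) and Abcc9 in females (1 of 10, against 1.45%). Male Abcc9 values went from 13.38 to 14.37 in sham to 11.88 to 13.06 in PPE (adjusted p = 2.91e-05), and female values from 14.50 to 14.74 to 13.25 to 13.75 (adjusted p = 0.0167). Amigo1 was at −0.29 in males (adjusted p = 0.00895) and −0.19 in females, and its male PPE mean of 6.20 lay below the dim limit. The pancreatic receptor gene Abcc8 and the BK gamma subunit gene Lrrc26 differed by 0.01 and −0.08 in males. Their male sham means of 5.29 and 4.60 lay below the dim limit, so a change may not have been detectable.

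Of 6 measured genes that feed calcium or cGMP signals to BK channels, 5 fell in males (83.3% against 9.98% of all genes, median −1.31) and 3 in females (50.0% against 1.45%, median −0.66). Of all genes above the dim limit 15.4% fell in males and 2.54% in females. The list was chosen with earlier results of these data known, so its shares are a description only. Jph2, which anchors the sarcoplasmic reticulum to the surface membrane, was at −1.51 in males and −0.86 in females. Ryr2, the ryanodine receptor whose calcium sparks open BK channels, was at −1.47 and −0.74. Cacnb2, a subunit of voltage-gated calcium channels, was at −1.30 and −0.92. All 3 were called in both sexes. Prkg1, the cGMP-dependent kinase that activates BK channels, fell in males (−1.31) and was at −0.58 in females without passing, as did Cacna1c, the L-type calcium channel pore (−0.88 and −0.42). Trpv4 was at −0.15 and −0.16 with no call.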

How the data were processed

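The members, gene lists and tests were chosen with earlier results of these data known. The labels give 1 mouse per array. The authors deposited log2 intensities per probe set, made with the Transcriptome Analysis Console on mm10, per the submitters' processing notes. The software version, and how probes were summarised and corrected for background, is not stated in what was available. Of 65956 probe sets 30604 carried 1 gene symbol, and symbols were updated by gene ID against RefSeq GRCm38.p6. The brightest probe set per gene gave 30142 genes, with no dim gene removed.

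Group means over 19 arrays were fitted with limma 3.58.1 in R 4.3.3 (lmFit, eBayes). PPE was set against sham within each sex and the responses between sexes, with Benjamini-Hochberg adjustment over 30142 genes and a threshold of 0.05. Each adjusted p is from this fit unless another setting is named with it. With the dim filter the adjustment covered the 15366 genes above the limit. The subunit ratios were chosen after values were seen, so the exact permutation tests run on them are not printed. Named genes were all measured members of the mural, leukocyte and endothelial lists, any other called member, and at most 2 uncalled neuronal genes, of which Kcna1 is described. Standard errors come from the fit and ranges from single arrays. Windows before gene starts are from RefSeq, and some of these starts are internal to the gene.

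Alternatives tried were other scalings (quantile normalization, median centring), a filter at the dim limit, averaged probe sets, a robust trended prior, weighted arrays, each sex fitted alone, replicate number as a block, and a stricter threshold of 0.01. Arrays were also left out singly, and male sham 4, male sham 5 and male PPE 1 together.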

Additional observations from a re-analysis of the deposited data

Results flagged for a closer look

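In 3 of 72 groups of 4 to 7 arrays examined for the 24 genes, 1 array stood far from the others of its group, and chance flags about 1 in 20 such groups. Kcnk3 read 8.86 in male sham 4, where the nearest sham array read 7.49, and this is the array with the high adipocyte markers. Kcne4 read 6.86 in male PPE 1 against 7.90 to 8.38 in the other male PPE arrays. Kcne3 read 5.70 in male PPE 2 against 5.14 to 5.38 in the others, below the dim limit throughout.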

How the results depend on the processing

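All 13 male calls held in each of 19 fits without 1 array, and 10 of them also under every alternative that tested them (Kcna6, 1 of the 10, is removed by the dim filter). None of the 6 female calls held in all 19, since each was lost without female sham 2. No called gene changed sign. The male count of 4 higher genes was 7 with median centring, 7 with array weights, 7 without male sham 4, male sham 5 and male PPE 1 together, and 2 at a threshold of 0.01 (4 to 6 without 1 array). The male count of 9 lower genes was 9 to 12 without 1 array. The female count of 1 higher gene was 0 with median centring and at 0.01, 2 with the dim filter, 2 with only the groups compared, 2 without the 3 male arrays and 4 with array weights (0 to 2 without 1 array). It was 0 without female sham 1, sham 2, PPE 2 or PPE 3, and 2 without male PPE 1 or male PPE 6. The female count of 5 lower genes was 8 with array weights and 1 at 0.01. It was 3 without female sham 1 or sham 3, 0 without sham 2, and 2 without PPE 1 or PPE 3 (0 to 6 over all 19). For mural genes the female count of 3 was 0 at 0.01, 1 without female sham 1, PPE 1 or PPE 3, and 0 without sham 2 (0 to 4 over all 19), and the male count of 4 was 4 to 5. For leukocyte genes the male count of 4 was 2 at 0.01 (4 to 5 without 1 array). The female count of 1 was 0 with median centring and at 0.01, and 2 with the dim filter, with array weights or without the 3 male arrays (0 to 2 without 1 array). The count of genes whose response differed between the sexes was 1 with array weights and 0 to 1 without 1 array. The cause of these shifts was not tested, apart from fewer arrays or genes by construction.

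With a replicate block, the female counts of lower genes were 1 over all 90 and 0 over mural genes, and Kcnj8 (adjusted p = 0.102) and Kcnk6 (0.0937) lost their male calls. The labels do not say that numbers pair mice. Of 8 same-numbered pairs 2 had deviations correlated above 0.1 (range −0.32 to 0.24), and 1 sham mouse correlated best with its own number, so no pairing was assumed.

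Signs of uncalled genes turned as follows. Kcna5 was −0.10 to 0.16 in males without 1 array. In females it was −0.09 after quantile normalization and −0.01 to 0.08 without 1 array. Kcne4 in females was −0.32 to 0.37 and Kcnj12 −0.02 to 0.04 without 1 array. Kcnk13 in females was −0.01 after quantile normalization. Kcnk5 in males was −0.07 with array weights, −0.02 without the 3 arrays and −0.03 to 0.09 without 1 array, and in females 0.00 with the block and 0.00 to 0.12 without 1 array. Scaling moved the median of all genes by at most 0.05 log2 units. Signal near background limits the 64 dim genes.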
